A study of Mus musculus with 24 samples.

Results

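Interferon-stimulated genes were followed through a time course of mouse intestinal organoids. The 35 genes were chosen by symbol, each matched to the mouse Entrez gene ID of that name, out of 36528 gene IDs in the count files. They are Isg15, Oasl1, Oasl2, Oas1a, Oas2, Oas3, Irf1, Irf7, Irf9, Ifit1, Ifit2, Ifit3, Ifi44, Ifi35, Ifih1, Ddx58, Dhx58, Stat2, Usp18, Rsad2, Mx1, Mx2, Bst2, Xaf1, Parp9, Parp12, Parp14, Dtx3l, Trim25, Rtp4, Lgals3bp, Zbp1, Psmb8, Psmb9 and Tap1. Organoids are small self-organised pieces of epithelium kept in culture, here from the small intestine. RNA was sequenced from 24 organoid samples in 6 groups of 4: DMSO, the solvent control, dFz7-21 or Fz7-21S, harvested at 6 h or 24 h. By the series' design text dFz7-21 is a peptide blocker of Frizzled 7, one of the receptors for Wnt proteins, and the labels give Fz7-21S by name alone. No dose, strain, age or genotype is given, and nothing in the labels tells whether replicates came from separate cultures or mice. The p-values therefore measure only how far these samples spread, which may be technical.

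Interferons are secreted proteins that warn cells of viral infection. Bound to their receptors, type I and type III interferons activate a protein complex that includes STAT2 and IRF9 and binds a DNA motif, the interferon-stimulated response element, and raises transcription of these genes. Many of the products sense viral RNA or block viral growth, and several (STAT2, IRF9, IRF7, RIG-I) belong to the circuit itself. Intestinal epithelium is known for keeping a low level of these genes in the absence of infection and for responding strongly to type III interferon.

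The response element was searched in promoters because it is what members of this group are known to share. The letters searched were GAAANNGAAA on either strand, in RefSeq windows of 250 bases before to 50 bases after a start site (GRCm38.p6), and overlapping matches were counted separately. A window was given for 26 of the 35 genes, and 10 of those 26 genes (38.5%) held the motif, against 3.99% of 27025 genes with a window. They were Isg15, Oas1a, Oas3, Ifit1, Ifit3, Ifih1, Ddx58, Stat2, Rsad2 and Bst2. The 150 bases before the start site are shown for 6 genes with a match there, and for Oasl2 and Parp12, which had none and were higher with dFz7-21 at 24 h, with matches in capitals.
Isg15: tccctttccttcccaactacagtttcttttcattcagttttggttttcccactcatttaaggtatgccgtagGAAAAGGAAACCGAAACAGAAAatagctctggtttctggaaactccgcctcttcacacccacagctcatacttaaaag
Oas1a: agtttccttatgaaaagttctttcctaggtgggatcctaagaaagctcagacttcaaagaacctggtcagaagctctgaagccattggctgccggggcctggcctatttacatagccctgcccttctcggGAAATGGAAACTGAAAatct
Oas3: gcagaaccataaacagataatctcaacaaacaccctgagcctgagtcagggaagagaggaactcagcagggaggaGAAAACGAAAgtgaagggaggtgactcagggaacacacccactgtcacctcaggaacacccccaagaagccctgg
Ifit1: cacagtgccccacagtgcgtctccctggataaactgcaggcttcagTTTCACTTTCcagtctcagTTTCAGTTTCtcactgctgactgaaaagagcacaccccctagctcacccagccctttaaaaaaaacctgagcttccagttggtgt
Rsad2: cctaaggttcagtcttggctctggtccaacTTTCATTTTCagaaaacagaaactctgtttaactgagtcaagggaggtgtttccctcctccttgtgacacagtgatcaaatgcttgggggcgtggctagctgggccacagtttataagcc
Bst2: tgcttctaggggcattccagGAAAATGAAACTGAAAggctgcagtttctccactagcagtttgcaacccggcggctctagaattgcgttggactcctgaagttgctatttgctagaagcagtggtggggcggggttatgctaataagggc
Oasl2: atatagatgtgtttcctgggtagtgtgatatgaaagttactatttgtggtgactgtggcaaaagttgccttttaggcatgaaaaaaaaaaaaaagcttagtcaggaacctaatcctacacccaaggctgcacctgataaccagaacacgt
Parp12: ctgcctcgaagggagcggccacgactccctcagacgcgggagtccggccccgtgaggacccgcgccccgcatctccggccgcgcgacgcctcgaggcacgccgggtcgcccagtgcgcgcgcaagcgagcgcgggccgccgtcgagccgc
Each sequence reads 5′ to 3′ toward its own gene. Their places on GRCm38.p6 are chr4:156200819-156200968, minus strand for Isg15 and chr5:120907526-120907675, minus strand for Oas1a. Those of Oas3 and Ifit1 are chr5:120777660-120777809, minus strand and chr19:34640739-34640888, plus strand. Those of Rsad2 and Bst2 are chr12:26456453-26456602, minus strand and chr8:71537473-71537622, minus strand. Those of Oasl2 and Parp12 are chr5:114896784-114896933, plus strand and chr6:39118350-39118499, minus strand. Isg15 had 3 overlapping matches in tandem from 78 to 57 bases before its start. Ifit1 had 2 matches, Oas1a and Bst2 had 2 overlapping ones, and Oas3 and Rsad2 had 1. A match describes the letters of a window and no more.

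Total counts ran from 20.4 M to 33.1 M reads per library (median 25.1 M), and the 35 genes took 0.0618% to 0.115% of them. Mx1 was too low to test, which left 34 genes among 15429 tested. Of the 35, 23 had at least 10 reads in every library and 5 (Oas2, Ifi44, Mx1, Mx2 and Zbp1) had a mean below 1 CPM (read counts scaled to library size by TMM). Transcripts of mesenchymal cells, which are not epithelium, were present in dFz7-21 24 h replicate 3 and, of DMSO at 6 h, in replicates 1 and 2. The summed level of 10 mesenchymal markers was 6.89 to 194 CPM in DMSO at 6 h, 9.24 to 924 CPM in dFz7-21 at 24 h and 4.61 to 9.29 CPM over the other 4 groups, with Dcn and Lum at 0 reads in all 24 libraries. Of 21 immune markers, 16 stayed under 10 reads in every library, among them Ptprc, the common leukocyte gene, with at most 6 reads. The summed immune level was 5.75 to 9.04 CPM at 6 h, 6.57 to 8.88 CPM at 24 h with either control, and 10.9 to 11.9 CPM with dFz7-21 at 24 h. Of the 4 immune markers tested, Itgam was the 1 called there, at a mean of 9.26 CPM against 5.34 CPM with DMSO. The log2 changes of Cd68 (-0.22), Lyz2 (-0.70) and Csf1r (0.95) against DMSO were not called.

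DMSO 6 h replicate 2 stood apart in the interferon-stimulated genes themselves. It was the highest of the 4 DMSO libraries at 6 h for 25 of 34 genes, and the highest of all 24 libraries for 10: Isg15, Oas2, Ifit1, Ifit2, Ifit3, Ifi44, Usp18, Mx2, Bst2 and Xaf1. Such ranks were not particular to it. Fz7-21S 6 h replicate 3 was the highest of its group for 26 genes, and dFz7-21 6 h replicate 1 was the highest of all 24 libraries for 13. The level of DMSO 6 h replicate 2 was at least 2 times the mean of the other 3 for 12 genes. The ratio was 21.6 for Oas2, 12.3 for Ifi44, 9.38 for Ifit3, 5.45 for Ifit2, 4.67 for Ifit1 and 4.47 for Usp18. Other members stayed level: the ratio was 1.05 for Irf9, 1.04 for Rsad2, 1.01 for Irf1, 0.969 for Trim25 and 0.923 for Oasl1. This library also carried mesenchymal transcripts and the only 2 reads of Ifnb1, the interferon-beta gene, in the series. DMSO 6 h replicate 1, with mesenchymal transcripts too, was the lowest of its group for 19 of the 34 genes. The part of these features in the levels was not tested, and counts of these genes called against DMSO are given with and without them.

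**Figure D1:**
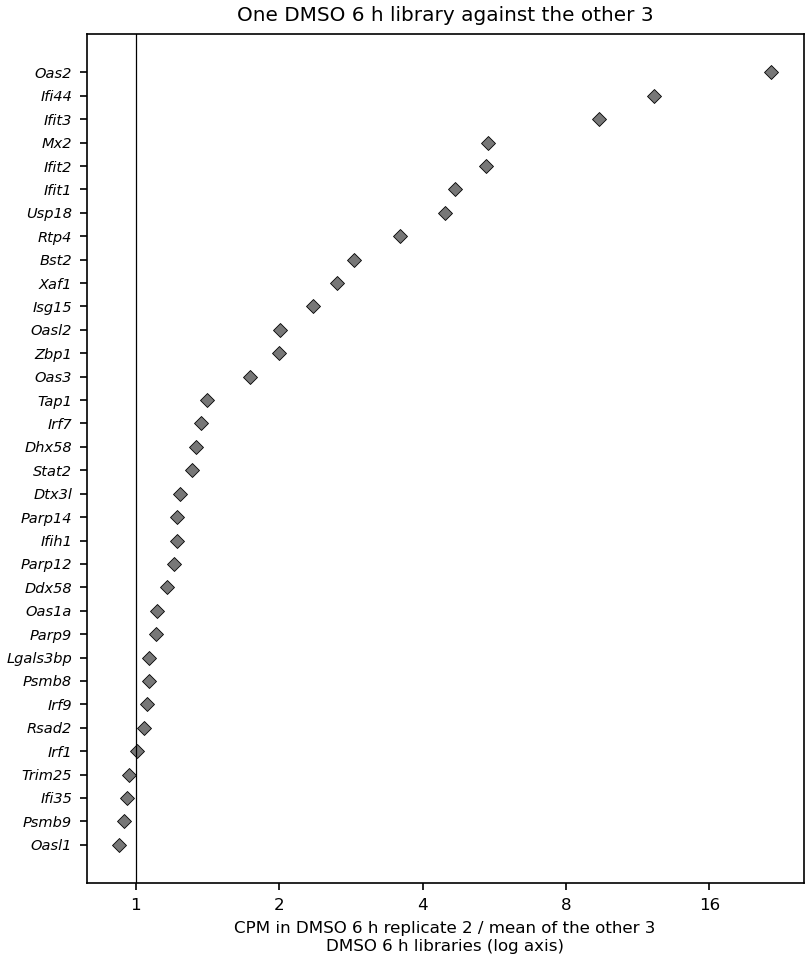
The ratio of the CPM in DMSO 6 h replicate 2 to the mean CPM of the other 3 DMSO 6 h libraries, on a log axis, for the 34 genes tested, in order of the ratio. Oas2, Ifi44 and Ifit3 lie between 9.38 and 21.6, while Irf1, Irf9 and Rsad2 lie within 1.01 to 1.05.

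Per length of transcript (RPKM, a read level scaled to length and depth), the levels of the 35 genes in DMSO at 6 h spanned from 89.2 ± 3.69 RPKM for Lgals3bp, a secreted glycoprotein, to 0.0999 ± 0.0195 RPKM for Mx1 (mean ± SD, n = 4). Ifi35 (32.8 ± 2.85), Bst2 (28.6 ± 18.4), Oasl1 (27.04 ± 4.34) and Trim25 (26.7 ± 0.897) came next. The gaps of Bst2 and Oasl1 to the other 3 were within both SDs together, while Ifi35 lay above Trim25 by more than both SDs together. Isg15 followed at 17.6 ± 9.47 RPKM. The sensors Ddx58 (7.64 ± 0.656) and Ifih1 (6.38 ± 0.749), with Stat2 (6.26 ± 0.986) and Irf9 (7.51 ± 0.555), formed a middle group whose ranges overlapped. Oas2, Mx2, Zbp1, Ifi44, Xaf1, Ifit2 and Oas3 had means under 1 RPKM. The means of Bst2 and Isg15 include DMSO 6 h replicate 2, at 2.88 and 2.35 times the mean CPM of the other 3 libraries. In DMSO at 24 h, Bst2 (14.4 ± 1.60 RPKM) lay below Trim25 (20.8 ± 1.12), and Isg15 stood at 1.74 ± 1.18 RPKM. RefSeq lists Mx1 and Mx2 of this build as transcribed pseudogenes. Some gene models overlap another protein-coding gene: Parp9 with Dtx3l, Ifit1 with Ifit1bl1, Stat2 with Apof and Rtp4 with Masp1. The counting could have split their reads. For members of families with close copies (Oas1a, Ifit3), reads that did not align uniquely were not counted. The levels of all these members are therefore uncertain.

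Every call among these genes with dFz7-21, against either control and at either time, was upward. At 24 h against DMSO, 20 of the 34 genes tested were higher (58.8%, against 18.2% of all genes tested) and 0 were lower (17.7% of all genes), with a median log2 change of 0.51 over the 34 and -0.01 over all genes. At 6 h against DMSO, 14 were higher (6.05% of all genes) and 0 lower (5% of all genes), with a median of 0.40. Against Fz7-21S, 19 were higher and 0 lower at 24 h (16.5% and 17.2% of all genes), and 17 were higher and 0 lower at 6 h (3.21% and 3.83% of all genes), with medians of 0.53 and 0.56. The comparisons with DMSO and with Fz7-21S share the dFz7-21 libraries, so they are not independent of each other. Calls are from edgeR's quasi-likelihood test at an adjusted p below 0.05 over all genes tested. Oasl1, Oas3, Irf7, Ddx58, Dhx58, Stat2, Parp9, Parp12 and Parp14 were called in all 4 comparisons. Of these, only Oasl1, Parp9 and Parp14 kept the call in all 4 under every alternative run. Oas2, Irf1, Ifit2, Ifit3, Ifi44, Mx2, Bst2, Zbp1 and Psmb9 were tested and called in none of the 4 comparisons. In these bulk samples more RNA per cell and more cells of a kind that holds the RNA cannot be told apart. At 24 h the summed level of 5 stem cell markers was 248 to 370 CPM with dFz7-21 and 2043 to 2739 CPM with DMSO, and that of 11 enterocyte markers was 7225 to 8452.3 against 4268 to 5175 CPM. At 6 h the stem cell markers were at 1377 to 1583 CPM with dFz7-21 and 1944 to 2086 CPM with DMSO, with 4 of the 5 called lower, and the enterocyte markers were at 3719 to 4657 against 3268 to 4317 CPM, with 1 of the 11 called. The part of these shifts in the result was not tested.

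The call at 24 h against DMSO did not rest on 1 library for 15 of the 20 genes, which were called without each library in turn. The other 5 lost it without some libraries: Oas1a (adjusted p up to 0.0916, without DMSO 24 h replicates 2 or 3 or dFz7-21 24 h replicate 2), Irf9 (up to 0.124), Ifit1 (up to 0.118), Ddx58 (up to 0.114) and Usp18 (up to 0.143). Irf9 and Ifit1 lost it without DMSO 24 h replicates 1 or 2 or dFz7-21 24 h replicates 2 or 3. Ddx58 lost it without DMSO 24 h replicates 2 or 3 or dFz7-21 24 h replicates 2, 3 or 4, and Usp18 without DMSO 24 h replicates 1, 3 or 4 or dFz7-21 24 h replicates 2 or 3. Without the 3 libraries that carry mesenchymal transcripts, 17 genes were higher (15.3% of all genes).

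At 6 h the count against DMSO depended on single libraries of both groups. Without DMSO 6 h replicate 2 it was 17 (4.14% of all genes higher), with Oasl2, Xaf1 and Rtp4 added to the same 14. Without DMSO 6 h replicate 1 it was 8: Oas1a, Irf7, Dhx58, Parp12, Dtx3l and Tap1 lost the call, with adjusted p up to 0.0588, 0.198, 0.0640, 0.0712, 0.0728 and 0.0857 over the libraries whose omission ended it. Oas1a lost it without DMSO 6 h replicate 1 alone. Dhx58, Parp12, Dtx3l, Tap1 and Irf7 lost it also without dFz7-21 6 h replicate 1, and all of these but Dhx58 without DMSO 6 h replicate 3. Irf7 was also not called with only the 2 groups compared in the fit (adjusted p = 0.217). Irf7 further needed dFz7-21 6 h replicates 2 and 3, Dtx3l dFz7-21 6 h replicate 4, and Tap1 DMSO 6 h replicate 4 and dFz7-21 6 h replicate 2. Without the 3 libraries with mesenchymal transcripts it was 11, of which 9 were among the 14, and the share of all genes called higher was 2.32%. The 8 genes called without each library in turn were Oasl1, Oas3, Irf9, Ddx58, Stat2, Parp9, Parp14 and Trim25. Without DMSO 6 h replicate 3, 2 genes (Ifit2 and Ifi44) were called lower. Against Fz7-21S at 6 h the count fell to 11 without Fz7-21S 6 h replicate 4, and 11 of the 17 genes were called without each library in turn.

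**Figure D2:**
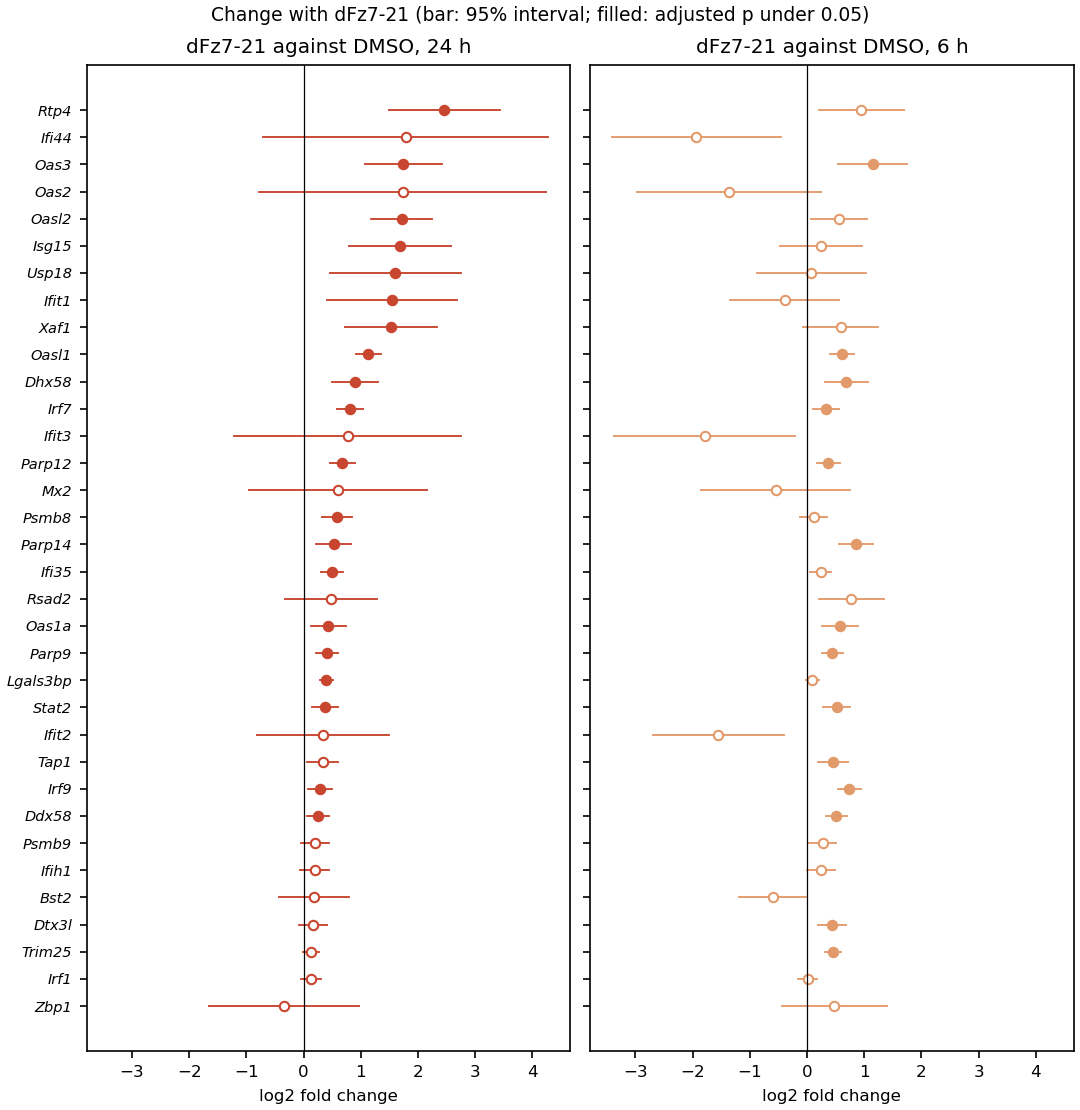
The log2 fold change of the 34 genes with dFz7-21 against DMSO at 24 h (left) and 6 h (right), in order of the change at 24 h, with 95% intervals and filled points where the adjusted p was under 0.05. The filled points lie right of 0 at both times (20 and 14), and the intervals of Ifi44, Oas2 and Ifit3 are the widest at 24 h.

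The transcription factor genes Irf9, Irf7 and Stat2 were called higher against DMSO at both times, with Irf9 moving most at 6 h and Irf7 at 24 h. Values of each group are in the order of replicates 1 to 4. Irf9 stood at 6 h at 20.7, 21.02, 18.02 and 21.1 CPM with DMSO, 19.5, 19.6, 18.1 and 19.2 CPM with Fz7-21S and 34.4, 33.5, 34.03 and 33.2 CPM with dFz7-21. All 4 dFz7-21 libraries were above all 8 controls, and the log2 change was 0.74 ± 0.10 (SE) against DMSO and 0.82 ± 0.10 against Fz7-21S. At 24 h Irf9 was at 13.04, 11.04, 13.996 and 14.6 CPM with DMSO, 14.5, 14.8, 14.4 and 9.95 CPM with Fz7-21S and 15.7, 17.4, 17.005 and 14.2 CPM with dFz7-21. The groups overlapped there, with a change of 0.29 ± 0.10 against DMSO (adjusted p = 0.0322) and 0.26 ± 0.10 against Fz7-21S (adjusted p = 0.0526).

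Irf7, which amplifies interferon transcription, changed more at 24 h than at 6 h against DMSO. The call of this difference between the times was lost without any of 6 libraries, DMSO 6 h replicate 2 among them. That of Irf9 was lost without any of 10. At 6 h Irf7 was at 18.1, 30.2, 21.3 and 26.8 CPM with DMSO, 20.7, 20.4, 23.5 and 20.6 CPM with Fz7-21S and 33.4, 31.5, 29.1 and 27.3 CPM with dFz7-21. DMSO replicate 2 reached into the dFz7-21 range, and the change against DMSO was 0.33 ± 0.11 (adjusted p = 0.0468). Every dFz7-21 library was above every Fz7-21S library, and that comparison was called under every alternative run. At 24 h Irf7 was at 21.5, 21.5, 21.1 and 20.1 CPM with DMSO, 20.7, 24.3, 25.3 and 22.5 CPM with Fz7-21S and 38.5, 36.9, 37.1 and 35.8 CPM with dFz7-21. Every dFz7-21 library was then above every control, by 0.82 ± 0.11 against DMSO and 0.68 ± 0.11 against Fz7-21S. Stat2, the partner of IRF9, was at 24.2, 34.3, 25.99 and 28.3 CPM with DMSO, 25.6, 26.2, 28.5 and 23.9 CPM with Fz7-21S and 44.6, 41.9, 40.6 and 34.5 CPM with dFz7-21 at 6 h. By 24 h it stood at 27.96, 25.7, 29.02 and 26.7 CPM with DMSO, 28.9, 28.02, 31.5 and 20.8 CPM with Fz7-21S and 32.8, 38.2, 38.2 and 32.3 CPM with dFz7-21. No dFz7-21 library overlapped a control at either time, and the changes against DMSO were 0.52 ± 0.11 at 6 h and 0.37 ± 0.11 at 24 h. Irf1, a transcription factor gene known mainly for its response to interferon gamma, was not called: its change against DMSO was 0.01 ± 0.08 at 6 h and 0.13 ± 0.08 at 24 h (95% interval -0.04 to 0.30).

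Among the sensors of viral nucleic acid, the 3 RIG-I-like genes differed in size. Ddx58 encodes RIG-I and was at 36.7, 42.2, 34.7 and 37.7 CPM with DMSO, 39.9, 42.2, 47.4 and 41.5 CPM with Fz7-21S and 58.4, 50.96, 56.7 and 50.3 CPM with dFz7-21 at 6 h. In the 24 h libraries it was at 24.9, 21.8, 23.7 and 24.8 CPM with DMSO, 23.96, 23.3, 24.8 and 17.5 CPM with Fz7-21S and 25.1, 31.2, 28.7 and 28.5 CPM with dFz7-21. The dFz7-21 libraries were above all controls at each time, with log2 changes against DMSO of 0.51 ± 0.09 and 0.25 ± 0.09. Ifih1 encodes MDA5 and was at 34.5, 44.7, 36.1 and 39.3 CPM with DMSO, 39.3, 39.2, 43.7 and 31.5 CPM with Fz7-21S and 49.7, 44.3, 45.9 and 42.96 CPM with dFz7-21 at 6 h. At 24 h it was at 31.05, 28.7, 31.4 and 30.1 CPM with DMSO, 29.02, 29.4, 26.5 and 17.7 CPM with Fz7-21S and 34.95, 39.5, 30.4 and 33.9 CPM with dFz7-21. The ranges of dFz7-21 and DMSO overlapped at both times, and of its 4 comparisons only dFz7-21 against Fz7-21S at 24 h was called (0.43 ± 0.12, adjusted p = 0.00849), and that call was lost (adjusted p = 0.0945) with only these 2 groups in the fit. Dhx58, the regulator LGP2, was higher in all 4 comparisons, by 0.69 and 0.86 at 6 h and 0.90 and 0.82 at 24 h against DMSO and Fz7-21S. Zbp1, a sensor of Z-form nucleic acid, had 1 to 52 reads per library and changes of 0.48 ± 0.44 and -0.34 ± 0.64 against DMSO, neither called.

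The 2′-5′-oligoadenylate synthetase family held the member with the smallest p against DMSO at 24 h. Oasl1, a catalytically inactive relative that restrains translation of Irf7, was at 52.8, 57.8, 59.5 and 75.5 CPM with DMSO, 67.4, 64.4, 70.7 and 64.7 CPM with Fz7-21S and 106, 94.1, 86.7 and 87.9 CPM with dFz7-21 at 6 h. By 24 h it stood at 26.1, 21.99, 23.1 and 23.3 CPM with DMSO, 22.4, 27.9, 28.7 and 28.9 CPM with Fz7-21S and 45.5, 58.7, 54.4 and 48.9 CPM with dFz7-21. All dFz7-21 libraries exceeded all controls at both times. Its change against DMSO was 0.61 ± 0.10 at 6 h and 1.13 ± 0.10 at 24 h (adjusted p = 7.03e-09). Oasl2 was at 9.01, 19.7, 9.18 and 11.3 CPM with DMSO, 9.004, 8.46, 13.6 and 7.67 CPM with Fz7-21S and 20.7, 15.4, 18.6 and 18.3 CPM with dFz7-21 at 6 h. DMSO replicate 2, at 19.7 CPM, lay within the dFz7-21 range. The change against DMSO was 0.56 ± 0.24 (adjusted p = 0.146) with that library and 0.89 ± 0.22 (adjusted p = 0.0122) without it. At 24 h Oasl2 was at 4.52, 2.05, 4.299 and 5.27 CPM with DMSO, 3.897, 5.22, 6.33 and 4.04 CPM with Fz7-21S and 11.7, 15.5, 14.7 and 11.6 CPM with dFz7-21, with no overlap and a change of 1.72 ± 0.26 against DMSO. Oas3, which makes the 2-5A messenger that activates RNase L, rose by 1.15 and 1.75 against DMSO at 6 h and 24 h. Oas1a, of the same enzyme activity, rose by 0.57 and 0.43. Oas2 ranged from 0 to 0.530 CPM in all libraries but DMSO 6 h replicate 2, at 3.58 CPM, and was not called with dFz7-21.

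**Figure D3:**
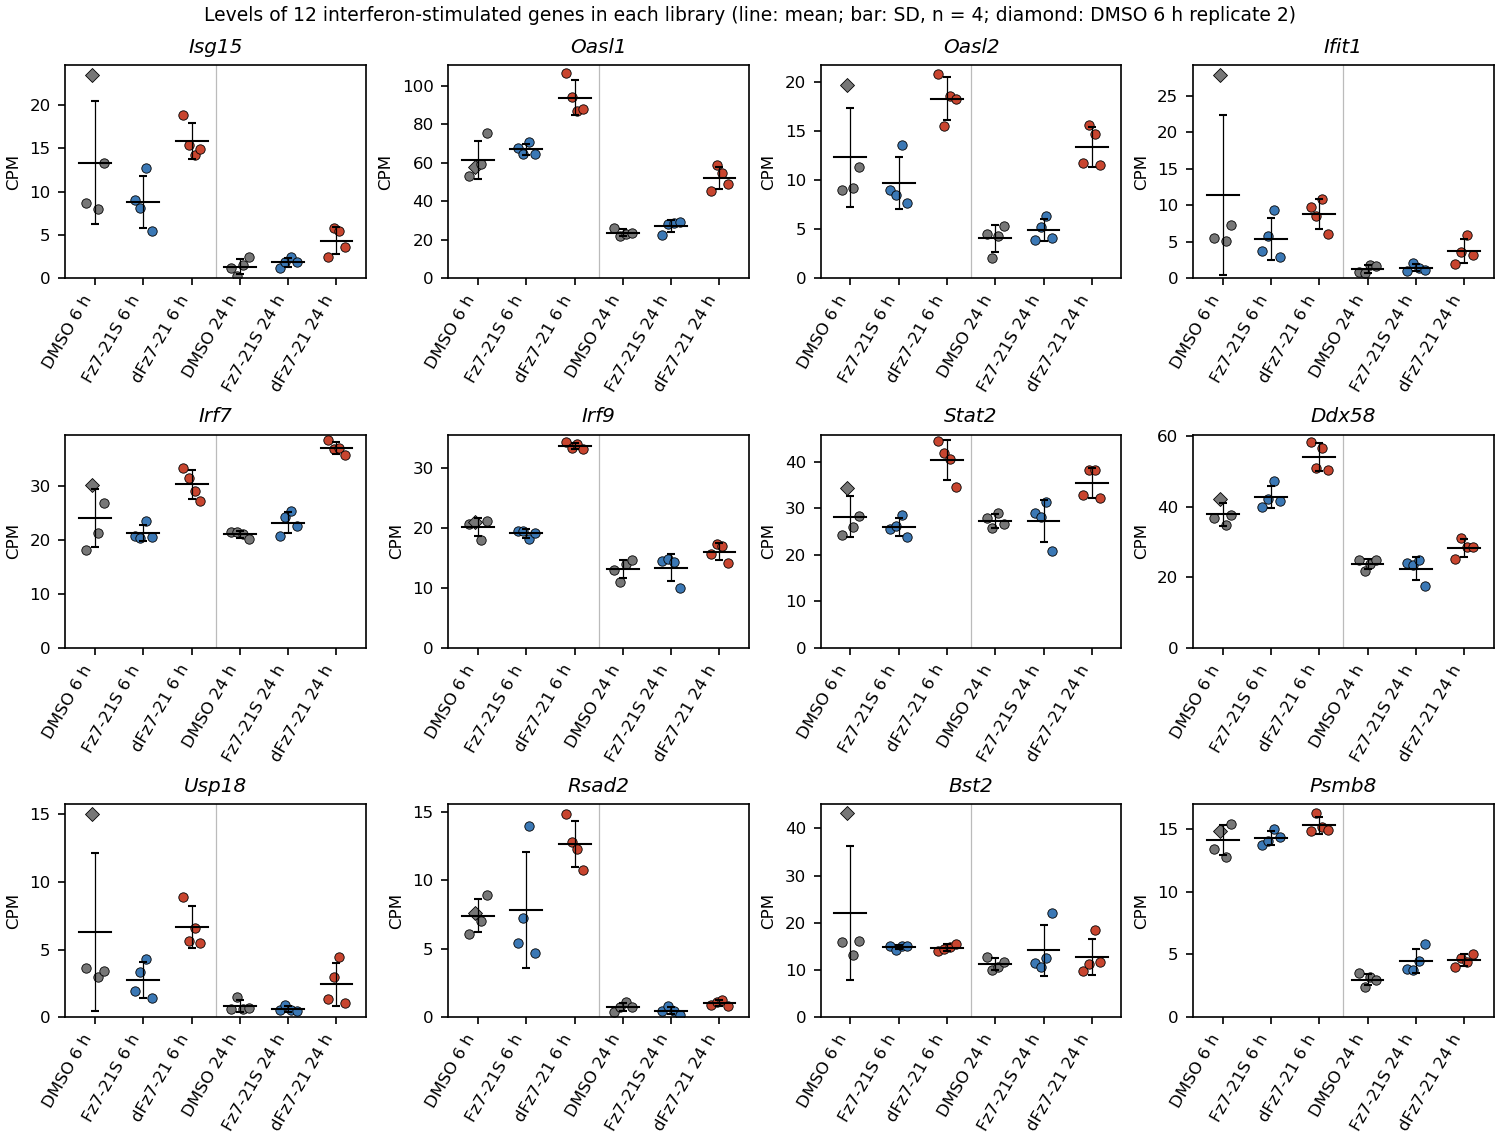
CPM of 12 of the genes in each of the 24 libraries, grouped by treatment and time, with the mean as a line and the SD as a bar (n = 4). DMSO 6 h replicate 2, drawn as a diamond, is the top point of Isg15, Ifit1, Usp18 and Bst2, and the dFz7-21 points of Oasl1, Stat2 and Ddx58 lie above both controls at both times.

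Isg15 and Usp18 were called higher against DMSO at 24 h. Isg15, a ubiquitin-like modifier, was at 1.13, 0.238, 1.55 and 2.39 CPM with DMSO, 1.16, 1.81, 2.39 and 1.88 CPM with Fz7-21S and 2.46, 5.84, 5.43 and 3.56 CPM with dFz7-21 at 24 h. All dFz7-21 libraries exceeded all DMSO libraries, with a change of 1.69 ± 0.43 (adjusted p = 0.00361). In the 6 h libraries it was at 8.65, 23.5, 7.97 and 13.3 CPM with DMSO, 9.05, 8.07, 12.7 and 5.41 CPM with Fz7-21S and 18.9, 15.4, 14.2 and 14.9 CPM with dFz7-21. DMSO replicate 2 topped the series and DMSO replicates 1 and 3 were lowest of that group, and the change was 0.24 ± 0.35 with replicate 2 and 0.67 ± 0.34 (adjusted p = 0.295) without it. Usp18, the protease that removes ISG15 and damps receptor signalling, was at 0.564, 1.48, 0.619 and 0.659 CPM with DMSO, 0.539, 0.884, 0.542 and 0.422 CPM with Fz7-21S and 1.302, 2.96, 4.45 and 1.02 CPM with dFz7-21 at 24 h. DMSO replicate 2 lay above dFz7-21 replicates 1 and 4, and the change was 1.61 ± 0.56 (adjusted p = 0.0273). At 6 h Usp18 was at 3.67, 15.03, 2.99 and 3.44 CPM with DMSO, 1.903, 3.32, 4.33 and 1.44 CPM with Fz7-21S and 8.899, 5.64, 6.61 and 5.497 CPM with dFz7-21. Its change there was 0.07 ± 0.46 with DMSO replicate 2 and 0.98 ± 0.40 (adjusted p = 0.157) without it.

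The IFIT proteins bind viral RNA that lacks host cap marks, and their genes varied widely between libraries of a group. Ifit1 was at 0.891, 0.666, 1.79 and 1.69 CPM with DMSO, 0.995, 2.08, 1.41 and 1.13 CPM with Fz7-21S and 1.98, 3.61, 5.87 and 3.23 CPM with dFz7-21 at 24 h. The dFz7-21 libraries were above all DMSO libraries by 1.54 ± 0.55 (adjusted p = 0.0317), while dFz7-21 replicate 1 lay within the Fz7-21S range. At 6 h it was at 5.48, 27.9, 5.07 and 7.35 CPM with DMSO, 3.76, 5.71, 9.34 and 2.84 CPM with Fz7-21S and 9.75, 8.51, 10.9 and 6.02 CPM with dFz7-21. DMSO replicate 2 was far above the rest, and the change of -0.39 ± 0.46 became 0.56 ± 0.36 (adjusted p = 0.463) without it. Ifit3 moved likewise from -1.79 ± 0.76 to -0.15 ± 0.64 at 6 h and Ifit2 from -1.55 ± 0.55 to -0.46 ± 0.47, none of them called. At 24 h dFz7-21 replicate 3, a library with mesenchymal transcripts, was the highest of its group for Ifit2 (5.34 CPM, the other 3 at 0.828 to 1.11) and Ifit3 (2.51 CPM, the other 3 at 0.0482 to 0.416).

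Other effectors split into those with a clear difference and those without. Rsad2, which encodes viperin, was at 6.05, 7.64, 7.06 and 8.93 CPM with DMSO, 5.43, 7.24, 13.97 and 4.73 CPM with Fz7-21S and 14.8, 12.8, 12.3 and 10.7 CPM with dFz7-21 at 6 h. Fz7-21S replicate 3 lay within the dFz7-21 range, and the change against DMSO was 0.77 ± 0.28 (adjusted p = 0.0753). In the 24 h libraries it was at 0.386, 0.762, 1.1004 and 0.741 CPM with DMSO, 0.456, 0.8398, 0.4701 and 0.141 CPM with Fz7-21S and 0.916, 1.13, 1.26 and 0.786 CPM with dFz7-21, near the bottom of its range in every group. Bst2, tetherin, was at 15.9, 43.3, 13.2 and 16.05 CPM with DMSO, 15.04, 14.2, 14.996 and 15.1 CPM with Fz7-21S and 13.9, 14.3, 14.8 and 15.6 CPM with dFz7-21 at 6 h. DMSO replicate 2 was the single high library, and the change against DMSO was -0.60 ± 0.28 with it and -0.04 ± 0.20 without it. At 24 h Bst2 was at 12.8, 9.996, 10.6 and 11.6 CPM with DMSO, 11.4, 10.6, 12.5 and 22.01 CPM with Fz7-21S and 9.74, 11.2, 18.4 and 11.7 CPM with dFz7-21, with 1 high library in Fz7-21S (replicate 4) and 1 in dFz7-21 (replicate 3). Its change against DMSO was 0.18 ± 0.29 (95% interval -0.42 to 0.79).

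Ifi35, which binds NMI, was at 37.4, 34.99, 33.6 and 39.8 CPM with DMSO, 39.97, 39.4, 42.4 and 57.3 CPM with Fz7-21S and 47.2, 50.5, 53.8 and 53.98 CPM with dFz7-21 at 24 h. It was above DMSO throughout (0.50 ± 0.09), while Fz7-21S replicate 4 topped all 24 libraries. In the 6 h libraries it was at 41.3, 43.3, 44.05 and 50.2 CPM with DMSO, 46.1, 48.4, 50.4 and 46.8 CPM with Fz7-21S and 54.3, 51.1, 53.4 and 51.7 CPM with dFz7-21, with a change of 0.24 ± 0.09 (adjusted p = 0.0964). Rtp4, which acts on flavivirus replication, had the largest fitted change of those called at 24 h (2.46 ± 0.47, from 0.343 ± 0.186 to 1.94 ± 0.630 CPM, mean ± SD, n = 4). Xaf1, a pro-apoptotic partner of XIAP, rose by 1.53 ± 0.39. At 6 h both were called against DMSO only without DMSO 6 h replicate 2 (1.68 ± 0.31 and 1.09 ± 0.30). Ifi44 changed by 1.79 ± 1.20 at 24 h and Mx2 by 0.60 ± 0.75, with at most 195 and 57 reads in any library, and neither was called. Lgals3bp was at 190.5, 205, 187 and 198 CPM with DMSO, 178, 192, 183 and 186 CPM with Fz7-21S and 205, 215, 201 and 208 CPM with dFz7-21 at 6 h. At 24 h it was at 215, 208, 224 and 242 CPM with DMSO, 221, 229, 253 and 207 CPM with Fz7-21S and 283, 307, 285 and 293 CPM with dFz7-21. Its dFz7-21 libraries overlapped DMSO at 6 h and lay above every control at 24 h (0.39 ± 0.06 against DMSO, adjusted p = 4.74e-06).

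The ADP-ribosyltransferases and ubiquitin ligases of the group were higher with dFz7-21 at 6 h, each of the 5. Of all genes, 6.05% were higher against DMSO and 3.21% against Fz7-21S. Against both controls Parp9, Parp14 and Trim25 kept the 6 h call without each library in turn, while Parp12 and Dtx3l did not. Parp14, an ADP-ribosyltransferase, was at 18.1, 24.9, 21.1 and 22.02 CPM with DMSO, 20.8, 17.8, 23.99 and 16.4 CPM with Fz7-21S and 43.4, 34.6, 40.7 and 36.9 CPM with dFz7-21 at 6 h. By 24 h it stood at 15.2, 14.9, 15.3 and 19.6 CPM with DMSO, 17.2, 17.2, 17.2 and 9.95 CPM with Fz7-21S and 23.4, 26.7, 22.9 and 20.8 CPM with dFz7-21. It was higher by 0.85 ± 0.14 and 0.53 ± 0.15 against DMSO, with no overlap between those groups. Parp12, an antiviral enzyme of the same kind, was at 25.6, 33.2, 26.8 and 30.1 CPM with DMSO, 28.03, 28.4, 29.9 and 26.2 CPM with Fz7-21S and 39.7, 35.3, 36.8 and 37.9 CPM with dFz7-21 at 6 h. In the 24 h libraries it was at 15.7, 10.2, 14.6 and 16.5 CPM with DMSO, 15.01, 14.9, 16.4 and 15.9 CPM with Fz7-21S and 24.1, 23.9, 22.3 and 21.4 CPM with dFz7-21. The dFz7-21 libraries lay above all controls at both times, by 0.37 ± 0.10 and 0.68 ± 0.10 against DMSO. Trim25, the ligase that activates RIG-I, was at 147, 145, 147 and 156 CPM with DMSO, 158, 151, 159.6 and 149.6 CPM with Fz7-21S and 204, 206, 201 and 203 CPM with dFz7-21 at 6 h. At 24 h it was at 112, 111, 119 and 124 CPM with DMSO, 115, 116, 121 and 86.3 CPM with Fz7-21S and 129.5, 136, 123 and 121 CPM with dFz7-21. It was above every control at 6 h (0.46 ± 0.07 against DMSO) and overlapped DMSO at 24 h (0.13 ± 0.07). Parp9 rose by 0.44 and 0.41 against DMSO. Its partner Dtx3l rose by 0.43 at 6 h and stood at 0.17 ± 0.12 at 24 h, not called, and the 2 gene models share 558 bases.

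The 3 antigen presentation genes of the group lie together on chromosome 17, with 225 bases between Psmb9 and Tap1. Psmb8, an immunoproteasome subunit, was at 3.48, 2.38, 3.198 and 2.92 CPM with DMSO, 3.81, 3.76, 4.48 and 5.82 CPM with Fz7-21S and 3.95, 4.75, 4.37 and 5.04 CPM with dFz7-21 at 24 h. Both dFz7-21 and Fz7-21S lay above DMSO and overlapped each other, with changes against DMSO of 0.58 ± 0.13 (adjusted p = 0.00102) and 0.56 ± 0.13 (adjusted p = 0.0602). At 6 h it was at 13.4, 14.8, 12.8 and 15.4 CPM with DMSO, 13.7, 14.002, 15.03 and 14.4 CPM with Fz7-21S and 14.8, 16.3, 15.2 and 14.9 CPM with dFz7-21, with overlap of all 3 groups. Tap1, one chain of the peptide transporter, was at 19.2, 25.6, 17.2 and 18.1 CPM with DMSO, 19.9, 17.6, 19.1 and 15.6 CPM with Fz7-21S and 28.4, 28.9, 26.5 and 26.02 CPM with dFz7-21 at 6 h. The dFz7-21 libraries exceeded every control by 0.45 ± 0.13 against DMSO. By 24 h it stood at 17.9, 12.5, 18.4 and 18.1 CPM with DMSO, 16.5, 16.8, 21.3 and 19.5 CPM with Fz7-21S and 20.4, 19.3, 25.5 and 19.2 CPM with dFz7-21, with a change of 0.33 ± 0.13 against DMSO (adjusted p = 0.0501). Psmb9 changed by 0.27 ± 0.11 and 0.20 ± 0.12, neither called.

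Fz7-21S against DMSO gave no call among the 34 genes at either time by edgeR's quasi-likelihood test. At 24 h, 0.259% of all genes were called higher and 0% lower, and 3 of the 34 genes had an unadjusted p under 0.05, while DESeq2 called 1 (Psmb8). At 6 h, 0.00648% of all genes were called higher and 0% lower, 6 of the 34 genes had an unadjusted p under 0.05 and DESeq2 called 0. The 6 h count was 0 also without DMSO 6 h replicate 2 and without the 3 libraries with mesenchymal transcripts, where 0% of all genes were called. The 95% interval of the log2 change at 24 h was -0.03 to 0.41 for Oasl1, -0.09 to 0.36 for Irf7 and -0.23 to 0.23 for Stat2, and -0.52 to 1.39 for Isg15. Without Fz7-21S 24 h replicate 1, Ifi35 and Psmb8 were called higher, and without replicate 2 Psmb8 was. The direct comparison of the 2 peptides named in the labels at matched times gave 19 and 17 genes higher with dFz7-21, as above, with 5 of the 19 and 6 of the 17 lost without 1 library. At 24 h these were Isg15 (adjusted p up to 0.0769), Usp18 (0.0593), Rsad2 (0.143), Xaf1 (0.0660) and Trim25 (0.0508). For Usp18 and Xaf1 the library was dFz7-21 24 h replicate 3 and for Trim25 dFz7-21 24 h replicate 2. Isg15 and Rsad2 lost the call without any of 4 and 7 libraries. With only the 2 groups compared in the fit, 6 of the 19 were not called at 24 h: Ifih1 (adjusted p = 0.0945), Ddx58 (0.0971), Stat2 (0.0894), Dtx3l (0.119), Rsad2 (0.110) and Trim25 (0.201). Thus 10 of the 19 were called under every alternative run: Oasl1, Oasl2, Oas3, Irf7, Dhx58, Parp9, Parp12, Parp14, Rtp4 and Lgals3bp. At 6 h the 6 genes lost without 1 library were Oasl2 (0.0902), Oas3 (0.0565), Ddx58 (0.103), Xaf1 (0.128), Parp12 (0.0547) and Dtx3l (0.168). Each of these 6 lost the call without Fz7-21S 6 h replicate 4, Parp12 also without dFz7-21 6 h replicate 1, and Oasl2, Ddx58, Xaf1 and Dtx3l without any of 6, 5, 8 and 8 libraries.

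Most of the genes fell from 6 h to 24 h whatever the treatment. With DMSO, 24 were lower and 1 higher (24.9% and 27.3% of all genes tested), with a median log2 change of -1.02. With dFz7-21, 19 were lower and 2 higher (30.1% and 29.8% of all genes), with a median of -0.77. With Fz7-21S, 20 were lower and 1 higher (28.1% and 31% of all genes), with a median of -0.81. The fall of 18 genes was called in all 3: Isg15, Oasl1, Oas3, Irf9, Ifit1, Ifih1, Ddx58, Dhx58, Usp18, Rsad2, Xaf1, Parp12, Parp14, Trim25, Rtp4, Zbp1, Psmb8 and Psmb9. With dFz7-21, Ifit1 and Usp18 lost that call without any of 5 and 2 libraries (adjusted p up to 0.0990 and 0.0549). With Fz7-21S, Parp14 lost it without any of 3 libraries (up to 0.167) and with only the 2 groups compared in the fit (0.129). The genes of viperin and of an immunoproteasome subunit were among the 18. Rsad2 fell by 3.32 ± 0.34 with DMSO, 4.02 ± 0.37 with Fz7-21S and 3.62 ± 0.33 with dFz7-21 on the log2 scale, and Psmb8 fell by 2.22 ± 0.12, 1.68 ± 0.12 and 1.76 ± 0.12. The Psmb8 call with DMSO had an adjusted p of 4.05e-13, the smallest of any member in any comparison. Irf1, Stat2, Oas1a, Parp9, Dtx3l, Ifit2 and Mx2 were called in neither direction in any of the 3. Lgals3bp rose in all 3 (0.19, 0.30 and 0.49 with DMSO, Fz7-21S and dFz7-21), and Irf7 rose with dFz7-21 (0.29 ± 0.11). Leaving out dFz7-21 6 h replicate 4 ended the call of Irf7 (adjusted p = 0.0595) and left 1 gene higher.

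The fall with DMSO was also measured without DMSO 6 h replicate 2. It was then called for 20 genes (22.5% of all genes), with Oas2 (adjusted p = 0.208), Ifih1 (0.0795), Bst2 (0.0866) and Parp14 (0.0884) no longer past the threshold. Without the 3 libraries with mesenchymal transcripts 20 genes were lower too (20.2% of all genes). The fitted fall of Ifi44 went from 5.001 ± 0.96 to 3.07 ± 0.75 and that of Ifit3 from 3.83 ± 0.88 to 2.19 ± 0.70, while that of Rsad2 went from 3.32 ± 0.34 to 3.30 ± 0.36. Without 1 library the count ran from 20 to 27 with DMSO, 16 to 20 with dFz7-21 and 18 to 21 with Fz7-21S, and without Fz7-21S 24 h replicate 1 a second gene, Oas1a, was higher with Fz7-21S. Cell markers moved over the same hours: with DMSO, 6 of 7 epithelium markers were called lower, with a summed level of 13972 to 16128 CPM at 6 h and 9409.9 to 10359 CPM at 24 h, and 8 of 11 enterocyte markers were called higher and 2 lower. Their part in the fall was not tested. The labels set time apart by nothing but the hour of treatment, so time in culture and any handling shared by the libraries of a time cannot be told apart.

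**Figure D4:**
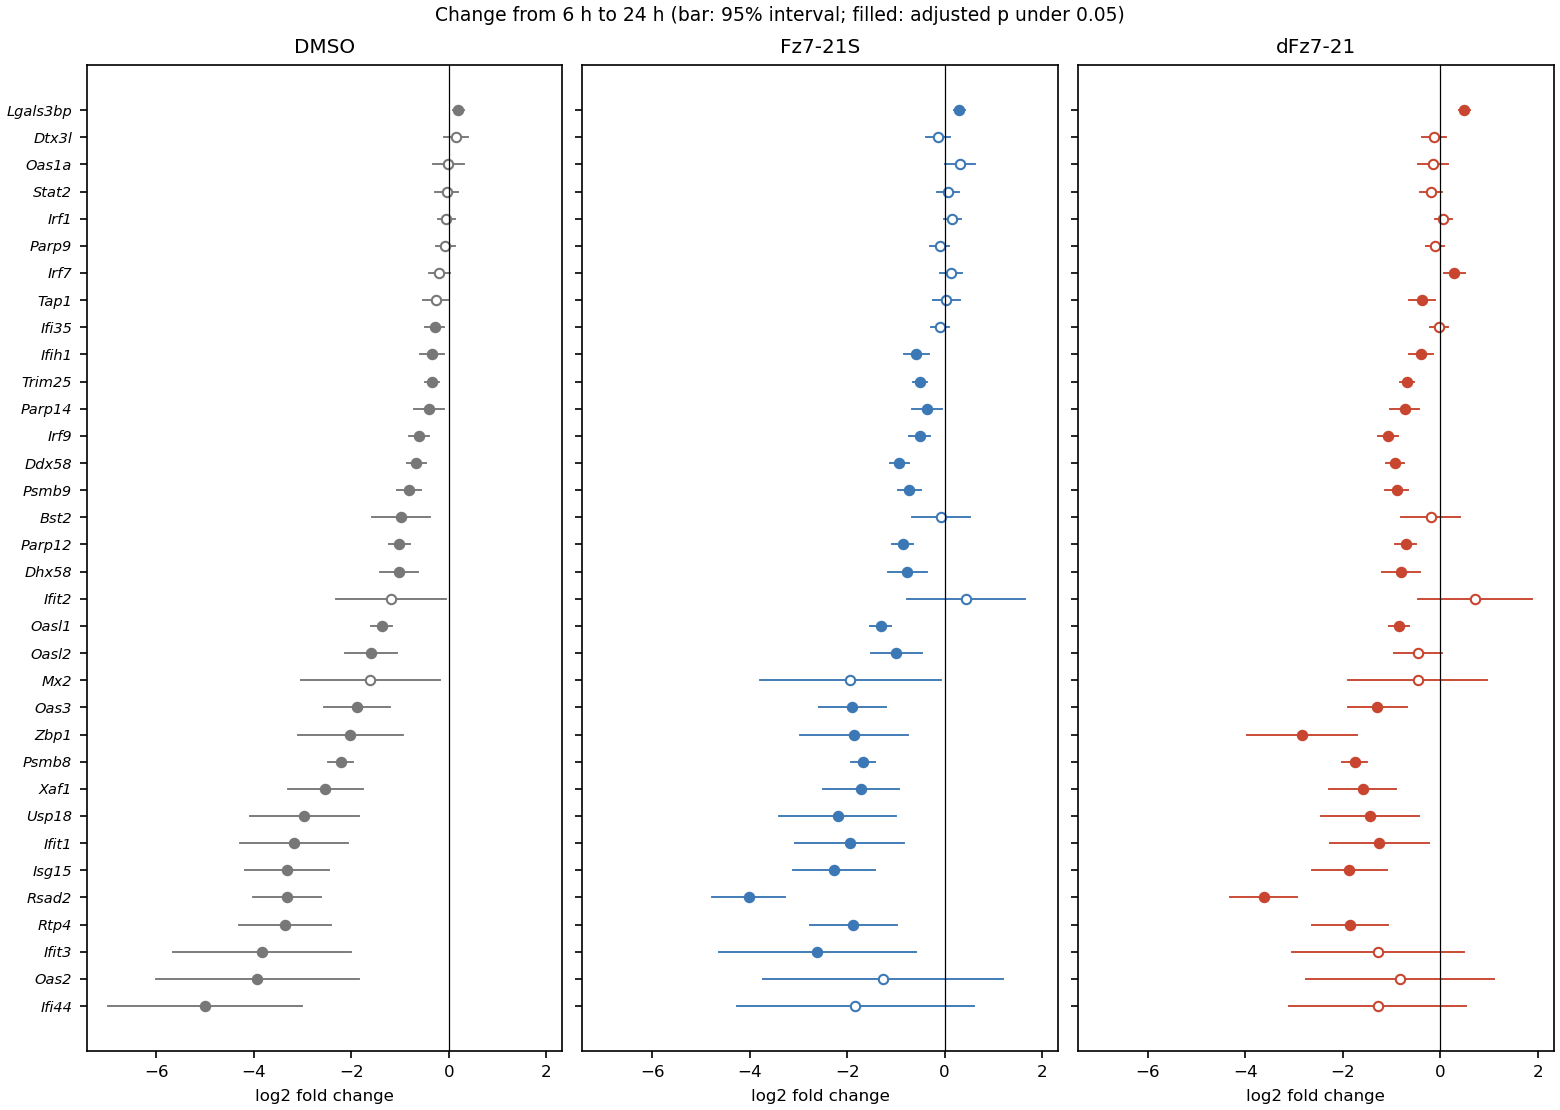
The log2 fold change from 6 h to 24 h of the 34 genes with DMSO, Fz7-21S and dFz7-21, in order of the change with DMSO, on a shared axis, with 95% intervals and filled points where the adjusted p was under 0.05. Rsad2, Rtp4 and Isg15 lie far left of 0 in all 3 panels and Lgals3bp lies right of 0 in all 3.

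The effect of dFz7-21 against DMSO differed between the times for 6 genes, by an interaction term in the same fit. It was larger at 24 h for 4 of 34 (11.8%, against 7.37% of all genes): Oasl2 by 1.15 ± 0.35, Oasl1 by 0.52 ± 0.14, Irf7 by 0.48 ± 0.15 and Lgals3bp by 0.31 ± 0.08. It was larger at 6 h for 2 of 34 (5.88%, near the 5.78% of all genes), Irf9 (-0.46 ± 0.14) and Trim25 (-0.32 ± 0.10). Oasl1 and Lgals3bp were called without each library in turn. Without DMSO 6 h replicate 2 the calls were Oasl1, Lgals3bp and Irf9, which is 2 larger and 1 smaller at 24 h (6.42% and 5.14% of all genes). Without the 3 libraries with mesenchymal transcripts they were Oasl1, Irf7 and Lgals3bp, all larger at 24 h (5.43% of all genes). Trim25 lost the call without any of 13 libraries (adjusted p up to 0.119), Irf9 without any of 10 (up to 0.114), Irf7 without any of 6 (up to 0.0984) and Oasl2 without any of 4 (up to 0.0862). Those of Oasl2 were DMSO 6 h replicate 2, dFz7-21 6 h replicate 2, DMSO 24 h replicate 2 and dFz7-21 24 h replicate 2.

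The rest of the interferon pathway was read from lists chosen for their roles. Of 20 interferon ligand genes, 16 had no read in any library and none reached 10 reads in one, with 32 reads in all across 24 libraries, 27 of them of Ifnk. Ifnk, a type I interferon gene, had at most 4 reads in a library and reads in 13 libraries, and Ifnl3, a type III gene, had 1 read in each of 2, where 3 reads correspond to 0.0906 to 0.147 CPM. Of 21 receptor and signalling genes, 9 were higher and 0 lower with dFz7-21 against DMSO at 24 h, with a median log2 change of 0.11 (18.2% of all genes were higher and 17.7% lower). The 3 with the smallest p were the interferon gamma receptor chains Ifngr2 (0.31 ± 0.05) and Ifngr1 (0.28 ± 0.05) and Il10rb (0.30 ± 0.05), a chain of the type III interferon receptor. At 6 h 6 were higher and 1 lower (6.05% and 5% of all genes). The counts were 5 and 1 without DMSO 6 h replicate 2 (4.14% and 3.69% of all genes). They were 4 and 0 without the 3 libraries with mesenchymal transcripts (2.32% and 2.12% of all genes). Of 20 sensors and adaptors tested, 3 were higher and 4 lower at 24 h (15% and 20%), near the shares of all genes. Ticam1, the adaptor TRIF (0.51 ± 0.07), and Ikbke, the kinase IKK-epsilon (0.34 ± 0.05), were higher, and Mb21d1, the DNA sensor cGAS, fell by 0.48 ± 0.09 on the log2 scale.

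Of 45 other interferon-stimulated genes tested, 15 were higher and 3 lower at 24 h (median 0.32), and 7 higher and 0 lower at 6 h (median 0.15), where 18.2% and 17.7% of all genes were called at 24 h and 6.05% and 5% at 6 h. The 6 h count higher was 8 without DMSO 6 h replicate 2 (4.14% of all genes) and 4 without the 3 libraries with mesenchymal transcripts (2.32% of all genes). Lgals9, a galectin (0.51 ± 0.06), and Mov10, an RNA helicase (0.39 ± 0.07), were higher, and Ifitm2, an antiviral membrane protein, fell by 0.63 ± 0.10. Of 7 interferon gamma-induced GTPases tested, Irgm2 (1.14 ± 0.36, adjusted p = 0.0148) and Gbp2 (3.13 ± 1.18, adjusted p = 0.0411) were higher at 24 h against DMSO (18.2% of all genes), 0 of 7 were called against Fz7-21S, and 0 of 7 at 6 h. Gbp2 had 60 reads in dFz7-21 24 h replicate 3. Without the 3 libraries with mesenchymal transcripts its change was 0.05 ± 0.87 (adjusted p = 0.978), while that of Irgm2 was 0.93 ± 0.29 (adjusted p = 0.0191). Of 16 genes of MHC class I presentation, 9 were higher at 24 h against DMSO (median 0.23, 18.2% of all genes higher) and 3 against Fz7-21S (median 0.07, 16.5% of all genes). Fz7-21S against DMSO at 24 h had 0 of the 16 called and 8 at an unadjusted p under 0.05 (median 0.15), and at 6 h dFz7-21 had 0 called against DMSO. Tapbpl (0.38 ± 0.07), Tapbp (0.33 ± 0.07) and H2-D1 (0.30 ± 0.06), which load and carry peptides, had the smallest p. The 34 chosen genes, at 20 of 34, stood beside 15 of 45 for the other interferon-stimulated genes in the same comparison, and the 2 lists were not tested against each other. With the response element in their window, 6 of 10 chosen genes were called higher against DMSO at 24 h and 4 of 10 at 6 h. Without it these were 9 of 16 and 7 of 16 (18.2% and 6.05% of all genes tested). The other 9 chosen genes had no window, among them Dhx58, Usp18, Parp9, Parp14 and Rtp4, which were called at 24 h. These counts describe the windows alone.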

How the data were processed

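Polyadenylated RNA of 24 organoid samples was sequenced, and titles gave each sample's group and replicate number. Each deposited count is of reads aligned uniquely to a gene model, per the file headers. RPKM, which the authors deposited beside it after a size factor for the sample, per the file headers, served only to set levels between genes. The submitters' processing notes name GSNAP and GRCm38. With aligner version, annotation and use of strand not given in the sources used here, reads of a gene and an antisense or overlapping partner cannot be told apart. Gene symbols, positions and promoters are from RefSeq (GRCm38.p6). All 35 symbols matched.

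Counts were tested with edgeR 4.0.16 in R 4.3.3: TMM factors, filterByExpr, 1 fit of all 24 libraries with a coefficient per group, robust quasi-likelihood F tests and Benjamini-Hochberg adjustment over 15429 genes, with calls at an adjusted p below 0.05. The procedure was tested on simulated data. The fit shares 1 estimate of the spread over the 6 groups. CPM are TMM-normalised, and 95% intervals are those of the fit. Comparisons of dFz7-21 and of Fz7-21S with DMSO share the DMSO libraries of a time.

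The members, the pathway and marker lists and the rule for named genes were chosen with earlier results of these data known. The rule gives all 35 members a value and prints every library for Isg15, Oasl2, Ifit1, Irf7, Irf9, Stat2, Ddx58, Ifih1, Usp18, Bst2, Psmb8 and Tap1, for the 6 members with the smallest p in dFz7-21 against DMSO at 24 h and for the 3 with the smallest p among those called in each other comparison. Of each pathway list it names the 3 called genes with the smallest p at 24 h. Alternatives were DESeq2 1.42.0, size factors by RLE, all genes unfiltered, a block for the replicate number, a spread without the robust option, a fit of only the groups compared, and leaving out each library in turn, DMSO 6 h replicate 2 or the 3 libraries with mesenchymal transcripts. Leaving out these libraries from the counts of the pathway lists was chosen after seeing the data. A count of 3 reads, which stands for the limit of a gene without reads, covers counting error only. Ifi44l, on the list of other interferon-stimulated genes, was not matched and was not analysed here.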

Additional observations from a re-analysis of the deposited data

Results flagged for a closer look

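Among 204 sets of 4 libraries (34 genes in 6 groups), 25 had 1 library far from the other 3. Chance would flag about 1 in 20, or 10.2 of 204, if the sets were independent. Genes of the same library are not, so the 25 cannot be weighed against that number. Of the 25, 9 were high values of DMSO 6 h replicate 2, a library known to be high before this count: Oas2 (3.58 CPM), Ifit1 (27.9), Ifit2 (9.54), Ifit3 (21.4), Ifi44 (6.18), Usp18 (15.0), Bst2 (43.3), Xaf1 (4.53) and Rtp4 (7.86). The other DMSO 6 h libraries reached at most 0.356, 7.35, 2.13, 3.83, 0.748, 3.67, 16.05, 1.87 and 2.41 CPM. The same library held mesenchymal transcripts (summed markers 139 CPM). DMSO 6 h replicate 1 held them too, at 194 CPM, and stood apart in none of these sets.

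Fz7-21S 24 h replicate 4 was low for Irf9 (9.95 CPM, the other 3 at 14.4 to 14.8), Parp14 (9.95, the other 3 at 17.2) and Ifit2 (0.986, the other 3 at 1.66 to 1.70), and high for Ifi35 (57.3, the other 3 at 39.4 to 42.4). In dFz7-21 24 h replicate 3, the library with the most mesenchymal transcripts, Ifit2 (5.34) and Ifit3 (2.51) were high. Fz7-21S 6 h replicate 3 was high for Oas2 (0.266) and Irf7 (23.5). DMSO 24 h replicate 2 was high for Usp18 (1.48) and low for Tap1 (12.5, the other 3 at 17.9 to 18.4). Single values that stood apart were Oasl1 in Fz7-21S 24 h replicate 1 (22.4, low), Irf9 in DMSO 6 h replicate 3 (18.0, low), Dhx58 in dFz7-21 6 h replicate 1 (10.5, high), Bst2 in Fz7-21S 6 h replicate 2 (14.2, low), Parp14 in DMSO 24 h replicate 4 (19.6, high) and Trim25 in DMSO 6 h replicate 4 (156, high).

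The effect of dFz7-21 against DMSO differed between 6 h and 24 h by the interaction term for Oasl2 (1.15), Oasl1 (0.52), Irf7 (0.48) and Lgals3bp (0.31), larger at 24 h, and for Irf9 (-0.46) and Trim25 (-0.32), larger at 6 h. The shares were 11.8% of the 34 genes against 7.37% of all genes, and 5.88% against 5.78%, which is near the share of all genes. Only Oasl1 and Lgals3bp were called without each library in turn.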

How the results depend on the processing

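No member changed direction among calls under any alternative. With DESeq2, 1 gene (Ifit2) was lower with dFz7-21 against DMSO at 6 h and 1 (Psmb8) higher with Fz7-21S against DMSO at 24 h. The count of genes whose dFz7-21 effect was smaller at 24 h was 0 with no filter on low counts and 0 without the 3 libraries with mesenchymal transcripts, against 2; the cause was not tested. Leaving out 1 library gave these ranges: dFz7-21 against DMSO at 6 h, 8 to 17 higher and 0 to 2 lower; dFz7-21 against Fz7-21S at 6 h, 11 to 18 higher; Fz7-21S against DMSO at 24 h, 0 to 2 higher; 24 h against 6 h, 1 to 2 higher with dFz7-21 and 1 to 2 with Fz7-21S; and the interaction, 2 to 6 higher and 0 to 2 lower. Of 60 pairs of libraries with the same replicate number, 5 had a correlation of deviations over 0.1 (median 0.0127 over the 60). The own number was the best match of 4 in 19 of 60. This check cannot tell whether samples of a number shared a culture, and the labels do not say. With the replicate number as a block, 20 members (24 h) and 14 (6 h) were higher with dFz7-21 than with DMSO, 21 and 18 than with Fz7-21S, 24 lower with DMSO over time, and no count moved by over 1.5 times. Over single members, 5276 results kept their side of the threshold, 183 lost a call and 92 gained one. The low members Oas2, Ifi44, Mx1, Mx2 and Zbp1 are limited by depth.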
